A study of Mus musculus with 3 samples.

Results

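The genes of the respiratory chain and ATP synthase were followed across the cell classes of the mouse corneal epithelium. Members were every gene of the deposited table whose symbol began with mt-, or with Ndufa, Ndufb, Ndufc, Ndufs, Ndufv, Uqcr, Cox4, Cox5, Cox6, Cox7, Cox8 or Atp5, without the Ndufaf assembly factors, together with Sdha, Sdhb, Sdhc and Sdhd. This gave 96 of the 17931 genes, of which 83 were nuclear and 13 were encoded by mitochondrial DNA. The rule used symbols alone, but it was set with earlier results of these data known. The nuclear members comprised 39 genes of complex I, 4 of complex II, 8 of complex III, 15 of complex IV and 17 of ATP synthase (complex V). The mt- members comprised 7 genes of complex I, 1 of complex III, 3 of complex IV and 2 of complex V.

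Complexes I to IV pass electrons from NADH and succinate to oxygen and, except for complex II, pump protons across the inner mitochondrial membrane. ATP synthase uses the resulting gradient to make ATP. Subunits from both genomes are built into the same complexes, apart from complex II, whose subunits are all nuclear. The corneal epithelium is a stratified tissue in which limbal stem cells at its rim give rise to basal cells, transit-amplifying cells, wing cells and, at the surface, flat superficial cells that are shed.

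Healthy C57BL/6J mice in homeostasis provided corneal epithelium, which was detached by enzyme, dissociated with trypsin and sequenced as single cells. All 3 libraries were made with a droplet kit that reads the 3′ ends of transcripts and counts them as unique molecular identifiers (UMIs), and they formed 1 group. Library 1 was pooled from 4 corneas of 2 male mice of 20 weeks, library 2 from 4 corneas of 2 female mice of 11 weeks, while library 3 pooled 7 corneas from 7 males of 10 weeks. Since the libraries differ in age, sex and mouse number, no test was made between them, and the comparisons below are between cell classes within the same libraries.

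The authors' annotation named 8 classes, here limbal with 737 cells, TAC1 with 4136, TAC2 with 3186, conjunctival with 2422, superficial with 5240, wing with 13447, basal with 8829 and immune with 114. The names limbal, superficial and conjunctival are readings of the labels LSC, Squam and Conj. The summed level of 4 limbal markers (Gpha2, Cd63, Krt15 and Ifitm3) was 11774 to 13786 CPM (UMIs scaled to the total of the class) in limbal cells and 242 to 614 CPM in basal cells. It was higher still in conjunctival cells, at 22634 to 27046 CPM, so the set does not mark limbal cells alone. The summed level of 4 superficial markers (Muc4, Krt78, Ly6g6c and Cnfn) was 3544 to 3812 CPM in superficial cells and 17.8 to 30.5 CPM in basal cells. In wing cells it was 1401 to 1599 CPM and in conjunctival cells 1225 to 1422 CPM. The summed level of 5 conjunctival keratins was 12221 to 14835 CPM in conjunctival cells, 1847 to 2523 CPM in limbal cells and 28.4 to 72.5 CPM in basal cells. It was 5422 to 6336 CPM in superficial and 2233 to 2560 CPM in wing cells, so these keratins do not mark conjunctival cells alone. Their part in the limbal, superficial and wing values was not tested. The dividing markers Mki67 and Top2a together were at 781 to 874 CPM in TAC2 and 51.6 to 74.2 CPM in TAC1. Limbal cells were above TAC1 at 82.9 to 112 CPM, and basal cells were at 6.94 to 8.68 CPM. The summed level of 4 basal markers (Trp63, Krt14, Krt5 and Col17a1) was 6948 to 8270 CPM in basal cells. It was 9595 to 11607 CPM in wing and 8842 to 11507 CPM in limbal cells, so the set does not mark basal cells alone. The muscle markers Acta1 and Ckm together did not exceed 0.384 CPM in any class. The libraries held 187340736, 177449217 and 190393121 UMIs in 9488, 11273 and 17350 cells, with median depths of 16159.5, 13232 and 8334 UMIs per cell. Between libraries 142 cell barcodes were shared, and 0 occurred in all 3.

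Summed over all members, superficial cells stood lowest and limbal cells highest in mitochondrially encoded RNA. The 83 nuclear members together had 16071, 18019 and 17821 CPM in superficial cells of libraries 1, 2 and 3, against 25255, 25431 and 26434 CPM in basal cells, and every superficial value lay below every basal value. CPM are relative to all UMIs of the same class and library. The means of the other classes lay close together. They ran from 27484 ± 790 CPM in conjunctival cells through 26885 ± 1615 in limbal, 26577 ± 533 in TAC2, 25707 ± 636 in basal and 25307 ± 689 in wing to 25030 ± 459 in TAC1 (SD, n = 3 libraries). Neighbours in that order overlapped. The step down to superficial cells, at 17304 ± 1072 CPM, was the only one without overlap.

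The 13 mt- members together had 23094, 21116 and 28502 CPM in limbal cells and 10755, 9886 and 12048 CPM in superficial cells, against 18630, 18703 and 21672 CPM in basal cells. The superficial values lay below all others, and the limbal value was above the basal value in each library. In between, wing cells had 15453, 14923 and 16885 CPM, below the basal value of the same library in all 3. TAC1 (19687 ± 1495 CPM), TAC2 (18801 ± 1893) and conjunctival cells (18101 ± 3031) overlapped with basal cells (19668 ± 1736). The ratio of summed mt- to summed nuclear UMIs, which does not depend on the total of a class, was 0.895, 0.735 and 1.09 in limbal cells, 0.669, 0.549 and 0.676 in superficial cells and 0.625, 0.572 and 0.672 in wing cells, against 0.738, 0.735 and 0.820 in basal cells. Both compartments were thus low in superficial cells, and their ratio there was near that of wing cells.

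The libraries kept an order. Library 3 had the highest summed mt- level in 7 of 7 epithelial classes, and library 2 the lowest in 6 of 7. For the nuclear members library 1 was lowest in 7 of 7 and library 2 highest in 6 of 7. Between libraries the order of depth matched that of the mt- level only in part. Library 3 was the shallowest, but library 1, not library 2, was the deepest. Within a class and library the shallowest of 3 equal groups of cells had a higher mt- percentage than the deepest group in 20 of 21 cases. For the nuclear percentage this was so in 2 of 21. Median depth was 10074, 9151.5 and 6242 UMIs per limbal cell and 21899, 18851 and 9334 per superficial cell, against 13166, 9865 and 5818 per basal cell. The part of depth in these results was not tested, beyond the thinned and trimmed values under the alternatives.

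**Figure D1:**
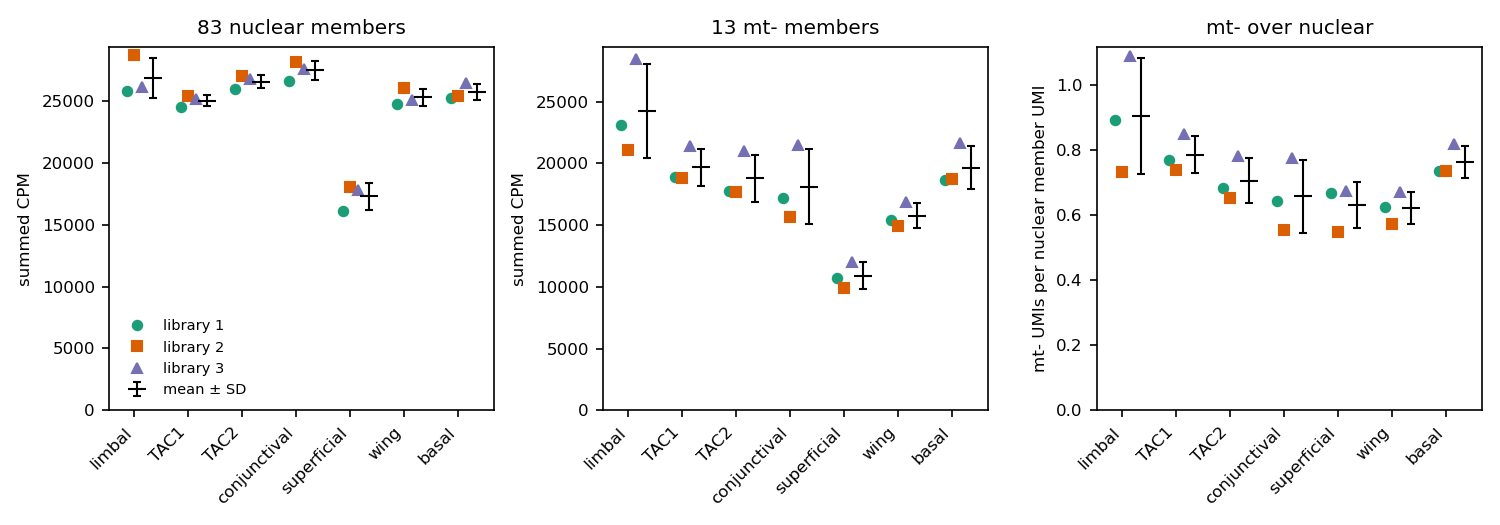
Summed CPM of the nuclear members and of the mt- members in each epithelial class, with 1 point per library and the mean ± SD of 3 libraries. Superficial cells are lowest in both, at 17304 and 10896 CPM on average, and limbal cells are highest in mt- members at 24237 CPM.

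The scale matters for superficial cells. Their 50 most abundant genes took 51.3 ± 0.553% of all UMIs (SD, n = 3), against 35.0% in basal cells, so the genes outside that top group together had a smaller share of the total. Trimmed-mean (TMM) scaling, used in the tests, sets the bulk of genes level. The median log2 fold change of all genes between superficial and basal cells was -0.11 with TMM and -1.26 with totals alone. The corresponding pairs were -0.10 and -1.08 for superficial against wing, -0.07 and -0.39 for conjunctival against basal, -0.02 and -0.20 for wing against basal, and -0.01 and 0.11 for limbal against basal. A member is therefore described as higher or lower under both scalings only where both made the call in the same direction. Of the 96 members, 92 had at least 1000 UMIs in all. Among them 69 of 79 nuclear and 11 of 13 mt- members had their lowest mean CPM in superficial cells, a share not taken over all genes. Most genes were low there by CPM. Superficial values lay below basal values without overlap for 68.7% of all genes with that many UMIs, beside 65 of 79 nuclear and 12 of 13 mt- members. The median ratio of a member's highest to its lowest class was 2.11 for nuclear and 2.36 for mt- members.

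Between superficial and basal cells, 45 of 80 nuclear members tested passed as higher and 19 as lower with TMM, where 41.3% of all genes tested were higher and 45.2% lower and 86.6% passed in either direction. With totals alone 4 were higher and 68 lower, beside 20.7% and 71.1% of all genes. The median nuclear member was at 0.29 with TMM and -0.87 with totals, which in both cases was 0.40 above the median of all genes. Only 4 nuclear members were higher under both scalings, 19 were lower under both, and 33 were called in opposite directions. For all genes the shares were 20.7% higher under both and 45.2% lower under both. Relative to the median gene the members were thus higher in superficial cells, and relative to all UMIs they were lower. A count here is of genes with an adjusted p under 0.05 in edgeR's quasi-likelihood test, adjusted over all genes.

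Complex IV held the widest contrasts. The 4 nuclear members higher under both scalings were Ndufa4, Cox5a, Cox6b1 and Cox7a1. Ndufa4 carries a complex I name but its protein is now assigned to complex IV, so all 4 belong to that complex. Of the 15 members named for it, Cox4i2 and Cox8c did not reach the count filter. At 3 of the others, Cox7a2l, Cox4i1 and Cox6b2, superficial cells were lower under both scalings. This is a smaller part than the 45.2% of all genes.

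Ndufa4 (GRCm38 chr6:11900292-11907497, minus strand) had 1810, 2420 and 2317 CPM in superficial cells, 2956, 3386 and 3218 CPM in conjunctival cells and 1714, 1994 and 2114 CPM in wing cells, against 751, 762 and 884 CPM in basal cells. These 3 classes lay above every basal, limbal, TAC1 and TAC2 value, the highest of which was 1273 CPM. The log2 fold change of superficial against basal cells was 2.60 ± 0.09 with TMM (SE, edgeR adjusted p = 4.6e-13) and 1.44 with totals, higher in 3 of 3 libraries.

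Cox5a (chr9:57521274-57532426, plus strand), a subunit on the matrix side of the enzyme, had 558, 697 and 571 CPM in superficial cells, 654, 740 and 648 CPM in conjunctival cells and 532, 601 and 504 CPM in wing cells, against 320, 347 and 322 CPM in basal cells. Again the 3 classes were above basal cells in every library. Against basal cells the superficial log2 fold change was 2.03 ± 0.08 with TMM (edgeR adjusted p = 1e-12) and 0.88 with totals. Cox6b1 (chr7:30616861-30626151, minus strand), the common form of a subunit facing the intermembrane space, had 656, 729 and 697 CPM in superficial cells, against 549, 567 and 560 CPM in basal cells, without overlap.

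Cox7a1 (chr7:30184144-30186078, plus strand) encodes the form of subunit 7a known from heart and skeletal muscle. It had 12.1, 15.6 and 15.6 CPM in superficial cells, 22.8, 27.6 and 19.4 CPM in conjunctival cells and 12.1, 12.9 and 12.5 CPM in wing cells, against 3.32, 3.20 and 4.38 CPM in basal cells. All values outside the basal, TAC1, TAC2 and limbal classes exceeded 12 CPM, and Acta1 and Ckm were at or near 0 in the same cells. Its superficial log2 fold change against basal cells was 3.14 ± 0.12 with TMM (edgeR adjusted p = 7.5e-13) and 1.99 with totals.

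Cox7a2l (chr17:83501918-83517330, minus strand) encodes a relative of subunit 7a, and its protein was not measured here. It had 73.8, 60.3 and 82.7 CPM in superficial cells, 134, 111 and 144 CPM in conjunctival cells and 222, 198 and 229 CPM in wing cells, against 538, 476 and 550 CPM in basal cells. From superficial through conjunctival and wing to limbal cells (346, 303 and 338 CPM) no class overlapped with the next, and TAC1 and TAC2 overlapped with basal cells. The superficial log2 fold change was -1.70 ± 0.08 with TMM (edgeR adjusted p = 4.1e-12) and -2.86 with totals.

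Cox4i1 (chr8:120668222-120674207, plus strand), the general form of subunit 4, had 254, 282 and 315 CPM in superficial cells, against 901, 892 and 1071 CPM in basal cells. It was lower in every library, with a log2 fold change of -0.60 ± 0.08 with TMM (edgeR adjusted p = 2.2e-06) and -1.75 with totals. Cox6b2, the testis form of subunit 6b, was rare everywhere, with 1, 0 and 4 UMIs in superficial cells and 62, 58 and 95 in basal cells. Its highest level was in TAC2, at 4.46, 5.14 and 6.75 CPM, against 2.34, 2.32 and 3.55 CPM in basal cells.

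**Figure D2:**
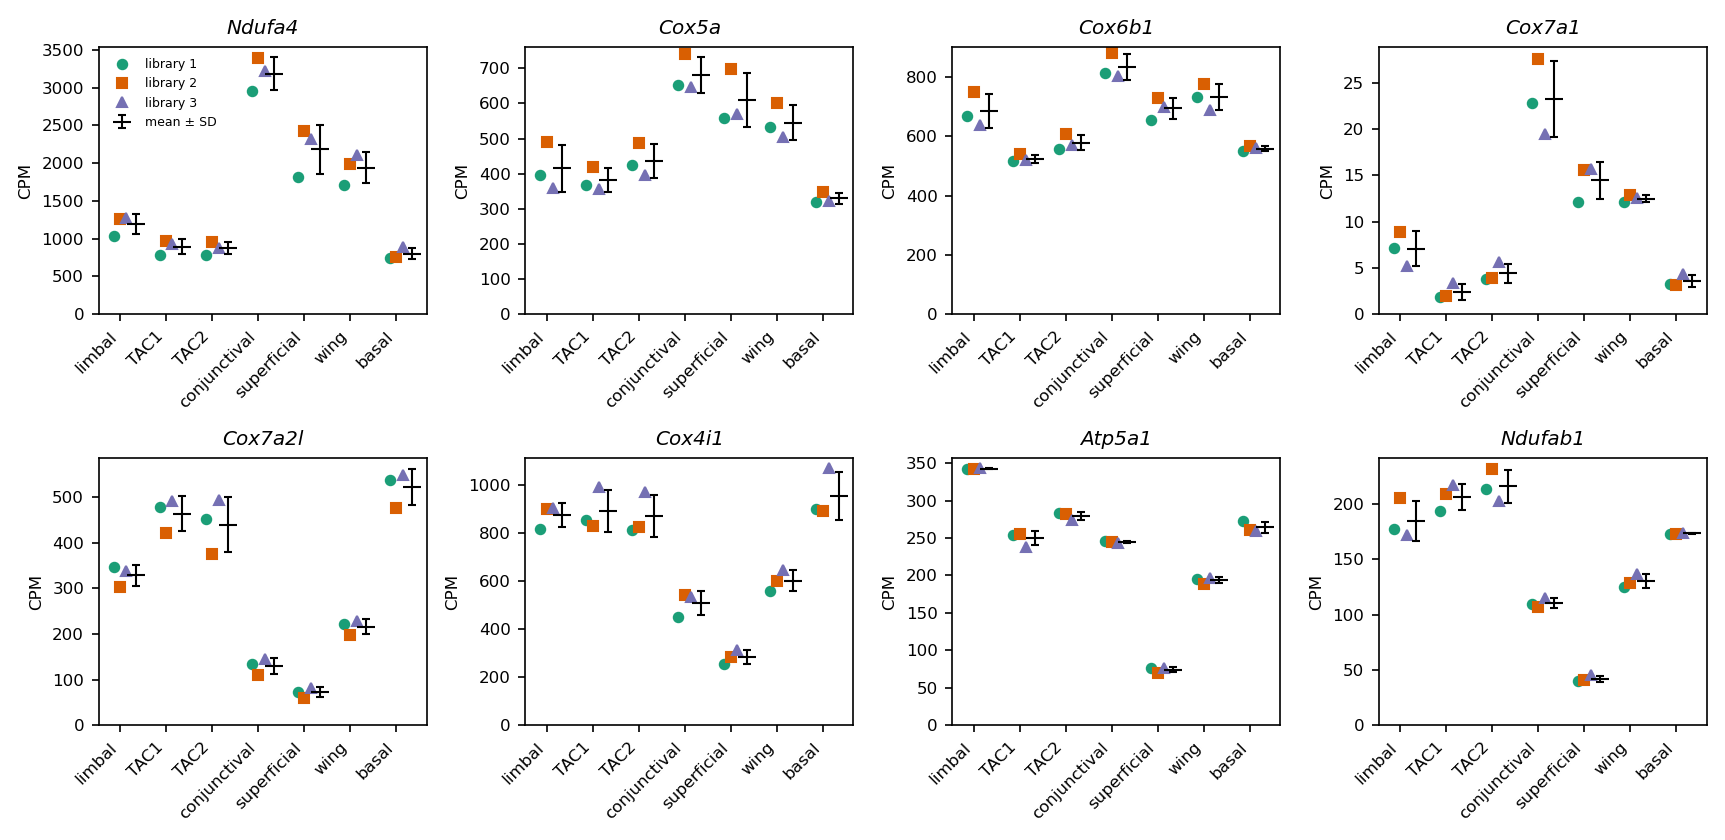
CPM of 8 members in each epithelial class, with 1 point per library and the mean ± SD of 3 libraries. Ndufa4, Cox5a and Cox7a1 are higher in conjunctival, superficial and wing cells than in basal cells, whereas Cox7a2l falls to 72.3 ± 11.3 CPM in superficial cells, against 521 ± 39.5 CPM in basal cells.

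Ratios of UMIs between members of the same complex do not depend on the scaling, and only their change across classes is read here, because a 3′ count gives no level per length for comparing genes. Ndufa4 per Cox4i1 was 7.13, 8.58 and 7.36 in superficial cells and 3.06, 3.32 and 3.27 in wing cells, against 0.833, 0.854 and 0.825 in basal cells. Cox5a per Cox5b, another peripheral subunit of complex IV, was 2.17 ± 0.0979 in superficial, 1.51 ± 0.0601 in conjunctival and 1.20 ± 0.0116 in wing cells, against 0.725 ± 0.0147 in basal cells (SD, n = 3). Cox7a2l per Cox7a2, the common form of subunit 7a, was 0.156 ± 0.0254 in superficial, 0.263 ± 0.0450 in conjunctival, 0.434 ± 0.0460 in wing and 0.615 ± 0.0903 in limbal cells, against 1.04 ± 0.114 in basal cells. Superficial, conjunctival and wing cells lay outside the basal range in each of these ratios. The pairs other than the paralogs were chosen after their values were seen and carry no test.

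In complex I, 12 of the 39 nuclear members were lower in superficial than in basal cells under both scalings, a smaller part than the 45.2% of all genes. Ndufa4l2, among the 39, was not tested. Apart from Ndufa4 none was higher under both, beside 20.7% of all genes. Among the lower ones were Ndufa10, Ndufa12, Ndufab1, Ndufb4, Ndufb5 and Ndufc2. The lower members also include core subunits such as Ndufv1, which binds the flavin that takes electrons from NADH, and Ndufs1, which holds iron-sulphur clusters. Ndufab1 (chr7:122085403-122101886, minus strand), the mitochondrial acyl carrier protein, had 40.2, 40.7 and 45.3 CPM in superficial cells, against 173, 173 and 174 CPM in basal cells, without overlap. It was highest in TAC2, at 214, 232 and 202 CPM. Ndufs4, an accessory subunit, had 176, 189 and 184 CPM in superficial cells, against 170, 163 and 167 CPM in basal cells. Its log2 fold change was 1.29 ± 0.08 with TMM (edgeR adjusted p = 1.4e-10) and 0.13 with totals. Ndufa3 had the same 1.29 with TMM and 0.13 with totals.

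In complex II, Sdhd, a membrane anchor, was lower under both scalings in superficial cells, with 30.6, 22.4 and 27.9 CPM, against 79.9, 63.3 and 67.9 CPM in basal cells. Sdhb, the iron-sulphur subunit, was higher with TMM at 0.29 and lower with totals at -0.87, and Sdha and Sdhc did not pass with TMM. In complex III, 5 of 8 nuclear members were higher with TMM and 0 lower, and with totals 0 were higher and 8 lower. For all genes the shares were 41.3% higher and 45.2% lower with TMM, and 20.7% and 71.1% with totals. The median of complex III was 0.45 with TMM and -0.70 with totals. The share of complex V in the summed nuclear UMIs was 25.3 ± 0.502% in superficial, 27.1% in conjunctival and 29.9% in wing cells, against 32.5 ± 0.516% in basal cells. The share of genes named for complex I was 37.9 ± 0.641% in superficial cells, against 32.4 ± 0.116% in basal cells, with Ndufa4 counted there. Without Ndufa4 the direction turned, and that share was 25.3 ± 0.616% in superficial cells, against 29.3 ± 0.314% in basal cells.

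Of the 17 nuclear members of complex V, those lower under both scalings were Atp5a1, Atp5g1 and Atp5g2, a smaller part than the 45.2% of all genes. Atp5a1 (chr18:77773729-77782869, plus strand), the alpha subunit of the catalytic head, had 76.3, 69.9 and 77.0 CPM in superficial cells, against 272, 261 and 259 CPM in basal cells. Atp5b, the beta subunit of the same head, had 201, 197 and 207 CPM in superficial cells, against 390, 378 and 355 CPM in basal cells. Alpha per beta was 0.369 ± 0.0129 in superficial cells, against 0.706 ± 0.0214 in basal cells, and it lay between 0.641 and 0.734 on average in the other 5 classes. The genes Atp5g1, Atp5g2 and Atp5g3 encode the same mature subunit c of the rotor ring. Atp5g2 (chr15:102662864-102672352, minus strand) had 292, 305 and 314 CPM in superficial cells, against 935, 972 and 943 CPM in basal cells. Atp5g2 per Atp5g3 was 2.12 ± 0.0638 in superficial cells, against 3.91 ± 0.300 in basal cells. Conjunctival cells, at 2.35 ± 0.176, overlapped with superficial cells, and wing cells were at 2.82 ± 0.235. Members outside the largest changes, the mt- genes, the most abundant of each complex and the paralogs, such as Ndufab1, Atp5a1, Atp5b and the complex I list, were named after their values were seen.

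**Figure D3:**
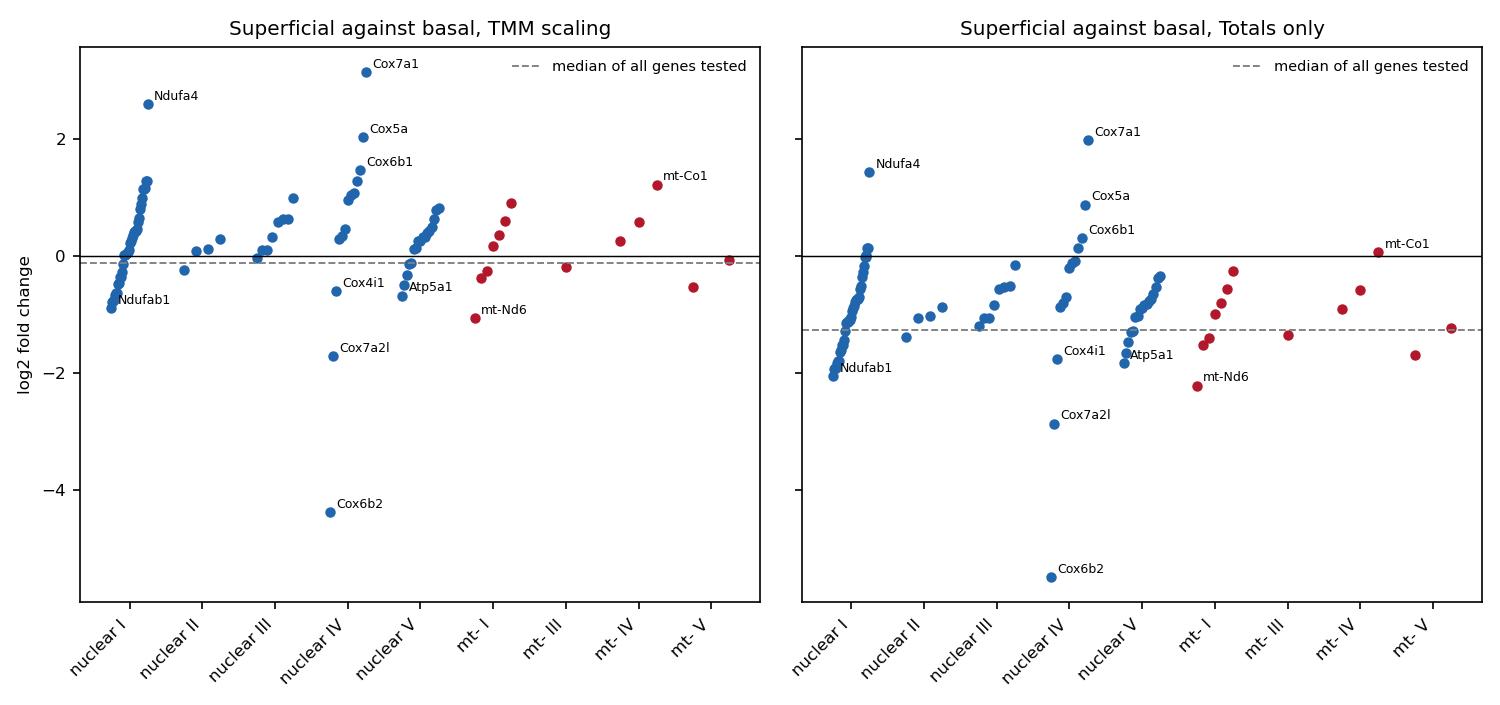
Log2 fold change of each tested member, superficial against basal cells, by compartment and complex, with TMM scaling on the left and totals alone on the right. The dashed line is the median of all genes tested, at -0.11 and -1.26. Of 93 members 55 change sign between the panels, whereas Cox7a1, Ndufa4, Cox5a and Cox6b1 stay above 0 and Cox7a2l, Cox4i1 and Atp5a1 stay below 0.

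Among mt- members the superficial and conjunctival classes differed from basal cells in make-up. Of 13 mt- members, 7 were higher and 5 lower in superficial than in basal cells with TMM, but 0 higher and 12 lower with totals. For all genes the shares were 41.3% and 45.2% with TMM, and 20.7% and 71.1% with totals. The mt- members lower under both scalings were mt-Nd1, mt-Nd3, mt-Nd6, mt-Cytb and mt-Atp8, beside 45.2% of all genes. Of these, mt-Cytb lost its call when any 1 library was left out (-0.23, -0.16 and -0.17 without library 1, 2 and 3), and mt-Nd1 when library 3 was left out (-0.20). Because mt- genes are compared with each other below, as shares of mt- UMIs, those values do not depend on scaling.

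The share of mt-Co1 (M:5328-6872, plus strand), the catalytic core of complex IV, was 16.1, 19.2 and 16.8% of mt- UMIs in superficial cells, 18.3, 20.3 and 17.7% in conjunctival cells and 14.4, 14.1 and 13.5% in limbal cells, against 8.66, 9.37 and 9.42% in basal cells. Wing cells lay at 12.4 ± 0.802%, and none of these 4 classes overlapped with basal cells. The means of TAC1 (9.17%) and TAC2 (9.30%) were within the basal range of values, while their library 3 values, 9.54 and 9.52%, lay just above it. The share of mt-Nd4, a proton-pumping subunit of complex I, was 8.97, 8.17 and 8.53% in superficial cells, against a mean of 5.62% in basal cells.

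The opposite held for mt-Cytb, the only mt- member of complex III, and for mt-Atp6 of ATP synthase. Their shares were 11.1 ± 0.376% and 20.9 ± 0.712% in superficial cells, against 15.5 ± 0.585% and 27.1 ± 0.665% in basal cells (SD, n = 3). The mt-Atp6 share in conjunctival cells, at 21.5 ± 0.134%, overlapped with that in superficial cells. The share of mt-Co2 stayed between 18.4 and 19.8% on average in the 7 epithelial classes. mt-Co1 per mt-Cytb was 1.56 ± 0.0985 in superficial, 1.54 ± 0.0905 in conjunctival and 1.07 ± 0.0496 in limbal cells, against 0.589 ± 0.0175 in basal cells.

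mt-Nd6 (M:13552-14070, minus strand), the only subunit encoded on the other strand of mitochondrial DNA, had 3.29, 2.19 and 4.74 CPM in superficial cells and 7.03, 4.89 and 10.9 CPM in wing cells, against 15.3, 10.1 and 21.9 CPM in basal cells. Library 2 was lowest and library 3 highest in each of the 3 classes, and superficial cells were below basal cells in every library. Its log2 fold change was -1.06 ± 0.12 with TMM (edgeR adjusted p = 3.1e-07) and -2.21 with totals. The genes mt-Atp8 and mt-Atp6, like mt-Nd4l and mt-Nd4, are read from shared transcripts and overlap, so the split of their UMIs is uncertain. Nuclear members with near-identical processed copies in the genome may likewise share reads.

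**Figure D4:**
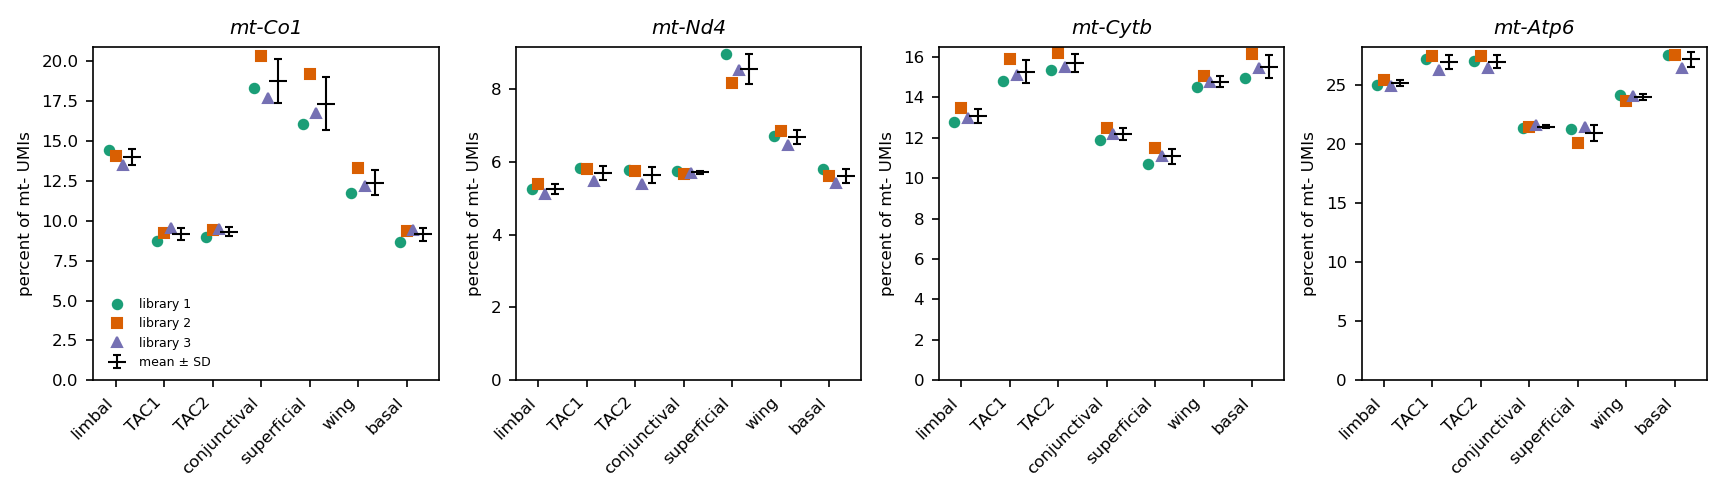
Share of 4 mt- members in the mt- UMIs of each class, in percent, with 1 point per library and the mean ± SD of 3 libraries. On average mt-Co1 is near 9% in basal, TAC1 and TAC2 cells and between 12 and 20% in the other classes, while mt-Cytb and mt-Atp6 are lowest in superficial cells.

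Superficial cells were also set against wing cells, the layer beneath them. Of 79 nuclear members tested, 46 were higher and 15 lower with TMM, where 37.9% of all genes were higher, 41.8% lower and 79.7% passed in either direction. With totals 3 were higher and 72 lower, beside 15.3% and 75.4% of all genes. Of 13 mt- members 8 were higher and 0 lower with TMM (edgeR), where 8 had an unadjusted p under 0.05, and with totals 0 were higher and 12 lower. Cox5a, Cox7a1 and Ndufa4 were higher under both scalings, with log2 fold changes of 1.13, 1.18 and 1.14 with TMM and 0.16, 0.20 and 0.16 with totals. Their CPM nevertheless overlapped between superficial and wing cells. By CPM, 71 of 79 nuclear members with 1000 UMIs or more were below wing cells without overlap and 0 above, where 74.9% of all genes with that many UMIs were below and 13.1% above. Cox7a2l was lower in superficial than in wing cells, by a log2 fold change of -0.61 with TMM and -1.59 with totals.

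Wing cells had more Ndufa4 and Cox5a and less Cox7a2l than basal cells, and fewer mt- UMIs. With TMM 37 of 80 nuclear members were higher and 20 lower, where 38.8% of all genes were higher, 38.7% lower and 77.6% passed in either direction. With totals 18 were higher and 40 lower, beside 30.4% and 48.8% of all genes. Under both scalings 18 were higher and 20 lower, beside 30.4% and 38.7% of all genes. Among members with a mean log2 CPM of at least 5, the largest nuclear changes were Ndufa4 at 1.46 ± 0.05 (edgeR adjusted p = 1.6e-10, totals 1.28), Cox5a at 0.90 (totals 0.72), Ndufv3 at 0.89 (totals 0.71) and Cox7a2l at -1.09 ± 0.04 (edgeR adjusted p = 3.8e-10, totals -1.27). Ndufv3, an accessory subunit of the NADH-binding module, had 224, 242 and 202 CPM in wing cells and 127, 148 and 133 CPM in superficial cells, against 136, 138 and 134 CPM in basal cells. Wing cells were thus above both neighbours in every library for this gene. Of 13 mt- members 1 was higher and 9 lower with TMM, with a median of -0.25. Without the library block 36 nuclear and 4 mt- members passed.

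In conjunctival cells Ndufa4, Cox5a and Ndufs3 were higher and Cox7a2l lower than in basal cells, while the balance of the nuclear members depended on the scaling. With TMM 52 of 80 were higher and 7 lower, where 37.3% of all genes were higher, 40.0% lower and 77.4% passed in either direction. With totals 25 were higher and 33 lower, beside 27.5% and 53.1% of all genes. Under both scalings 25 were higher and 7 lower, beside 27.5% and 40.0% of all genes. The median was 0.27 with TMM and -0.05 with totals. Ndufs3, a core subunit of complex I, had 235, 220 and 233 CPM in conjunctival cells, against 124, 124 and 124 CPM in basal cells. Conjunctival cells were the highest of the 7 epithelial classes for this gene in every library, and the log2 fold change was 1.21 ± 0.06 (edgeR adjusted p = 1.5e-09, totals 0.89). Ndufa4 was at 2.32 ± 0.07 (edgeR adjusted p = 4e-12, totals 2.00), Cox5a at 1.37 (totals 1.04) and Cox6a1 at 1.04 (totals 0.71). The 7 lower under both were Atp5g2, Cox4i1, Cox6b2, Cox7a2l, Ndufab1, Ndufb4 and Ndufb5. Of 13 mt- members 4 were higher and 7 lower with TMM, and mt-Co1 and mt-Co3 were higher under both scalings. mt-Co1 had 3149, 3178 and 3801 CPM in conjunctival cells, against 1613, 1753 and 2041 CPM in basal cells, without overlap. Without the library block 4 mt- members passed in place of 11.

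Limbal cells were higher than basal cells in mt-Co1, mt-Co2 and mt-Co3 and lower in Cox7a2l. With TMM 10 of 80 nuclear members were higher and 20 lower, where 21.4% of all genes were higher, 18.8% lower and 40.2% passed in either direction, so the members' share was near that of all genes. All 10 were also higher with totals, namely Atp5a1, Atp5b, Cox5a, Cox5b, Cox6b1, Cox7a1, Ndufa4, Ndufc1, Ndufs7 and Uqcrc2. Under both scalings 12.9% of all genes were lower, and only 5 of the 20 members stayed lower with totals, namely Atp5f1, Cox7a2l, Cox7b, Ndufa8 and Ndufs4. Of 13 mt- members 4 were higher and 4 lower. The 3 complex IV members were all among the higher, with mt-Co1 at 3334, 2977 and 3841 CPM in limbal cells, against 1613, 1753 and 2041 CPM in basal cells. Its log2 fold change was 0.79 ± 0.06 (edgeR adjusted p = 6.8e-16, totals 0.91), and those of mt-Co3 and mt-Co2 were 0.45 and 0.22 (totals 0.57 and 0.33). Cox7a2l was at -0.78 ± 0.07 (edgeR adjusted p = 2.5e-13, totals -0.66).

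The limbal class was the smallest of the 7 compared, and its counts moved with the samples. The nuclear count of 30 was 9 without library 1, 15 without library 3 and 9 without the library block, and the mt- count of 8 was 3 without library 1, 5 without library 2 and 1 without the block. The call that remained without the block was mt-Co1. mt-Co2 lost its call without library 1, at 0.19. The stromal gene Dcn was at 8.65 to 12.7 CPM in limbal cells, against at most 0.280 CPM in basal cells, and its part in these values was not tested.

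In the transit-amplifying classes the calls rested on small fold changes. In TAC1, 9 of 80 nuclear members were higher and 25 lower, where 21.1% of all genes were higher, 20.5% lower and 41.6% passed in either direction. Among members with a mean log2 CPM of at least 5, they ran from -0.27 for Ndufa6 to 0.26 for Ndufab1. Only mt-Nd1 of the mt- members passed, at 0.10 ± 0.03 (edgeR adjusted p = 0.00059). In TAC2, 18 were higher and 21 lower, where 24.9% of all genes were higher, 23.7% lower and 48.5% passed in either direction, and 11 of 13 mt- members were lower, with a median of -0.15 with TMM and -0.08 with totals. Of these, 6 were lower under both scalings, beside 17.5% of all genes. Ndufa5, an accessory subunit of complex I, was at 0.44 ± 0.05 (edgeR adjusted p = 9.4e-08, totals 0.51) in TAC2.

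These small differences depended on the block and on single libraries. In TAC1 the nuclear count of 34 was 0 without the library block in edgeR, where 6 had an unadjusted p under 0.05, and 15 with DESeq2. It was 18 without library 1 and 22 without library 3. The mt- count of 1 was 3 without library 2, 2 without library 3, and 0 without the block, with 0 at an unadjusted p under 0.05 and 1 with DESeq2. In TAC2 the nuclear count of 39 was 23 without library 1 and 6 without the block. The mt- count of 11 was 5 without library 2 and 0 without the block, with 0 at an unadjusted p under 0.05 and 9 with DESeq2.

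The tissue-restricted forms other than Cox7a1 and Cox6b2 were scarcely seen. Cox4i2, the lung form of subunit 4, had 3 UMIs among all cells, Cox8c, known from testis, had 4, and Ndufa4l2, a relative of Ndufa4 induced by low oxygen, had 52. Of the 52, superficial and conjunctival cells held 0. These 3 genes did not reach the count filter in any comparison, and Cox6b2 did not between superficial and wing cells.

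Promoter sequence from RefSeq (GRCm38.p6) was read for the windows from 250 bases before to 50 after a gene's start, which the table held for 66 of the 83 nuclear members, in 71 windows. The start is that of the RefSeq table. It lies 2997 bases inside the GENCODE gene for Cox7a2l and 1305 bases inside for Atp5g2, so the windows shown for both are not at the gene ends given above. Windows are shown for Ndufa4 and Cox5a, which were higher in superficial cells under both scalings, for Cox7a2l and Atp5g2, which were lower, and for Ndufa11, an accessory subunit of complex I that was higher in wing cells at 0.64 (totals 0.46). Capitals mark the motif of NRF1, a factor known to control many respiratory genes, or those of GABPA (CCGGAAGT) and YY1 (AAGATGGC). The NRF1 motif is the palindrome GCGCA followed by TGCGC, or its looser form with any base as the fifth letter. All sequences are given 5′ to 3′ on the strand of the gene.
Ndufa4, chr6:11907401-11907700, minus strand: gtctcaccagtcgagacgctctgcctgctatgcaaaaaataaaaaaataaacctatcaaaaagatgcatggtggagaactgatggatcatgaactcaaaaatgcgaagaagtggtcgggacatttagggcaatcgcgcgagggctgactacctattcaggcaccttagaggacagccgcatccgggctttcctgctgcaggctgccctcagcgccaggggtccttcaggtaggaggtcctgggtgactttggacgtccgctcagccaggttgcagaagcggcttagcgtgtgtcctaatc
Cox5a, chr9:57520982-57521281, plus strand: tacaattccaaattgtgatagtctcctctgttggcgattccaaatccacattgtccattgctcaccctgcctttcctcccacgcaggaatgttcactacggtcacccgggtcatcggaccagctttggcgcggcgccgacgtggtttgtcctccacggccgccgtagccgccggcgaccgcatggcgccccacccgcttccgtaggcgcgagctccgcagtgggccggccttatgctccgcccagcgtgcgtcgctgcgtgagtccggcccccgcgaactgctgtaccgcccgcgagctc
Cox7a2l, chr17:83514284-83514583, minus strand: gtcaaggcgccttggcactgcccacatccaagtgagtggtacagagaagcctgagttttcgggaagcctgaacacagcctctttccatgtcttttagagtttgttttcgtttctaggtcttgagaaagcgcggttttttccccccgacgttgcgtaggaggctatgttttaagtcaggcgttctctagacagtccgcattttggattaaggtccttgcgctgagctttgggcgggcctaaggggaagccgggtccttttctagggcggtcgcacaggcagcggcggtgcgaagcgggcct
Atp5g2, chr15:102670998-102671297, minus strand: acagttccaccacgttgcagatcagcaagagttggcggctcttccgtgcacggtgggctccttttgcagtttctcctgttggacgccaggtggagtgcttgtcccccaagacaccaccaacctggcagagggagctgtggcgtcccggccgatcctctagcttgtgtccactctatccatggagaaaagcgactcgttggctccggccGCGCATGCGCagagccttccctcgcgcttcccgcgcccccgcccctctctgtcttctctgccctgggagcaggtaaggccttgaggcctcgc
Ndufa11, chr17:56717512-56717811, plus strand: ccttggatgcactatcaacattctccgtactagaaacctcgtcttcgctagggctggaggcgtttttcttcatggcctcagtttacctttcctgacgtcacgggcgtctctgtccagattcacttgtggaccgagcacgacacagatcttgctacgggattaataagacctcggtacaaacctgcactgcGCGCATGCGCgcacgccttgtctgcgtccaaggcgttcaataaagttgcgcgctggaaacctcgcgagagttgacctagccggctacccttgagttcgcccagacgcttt

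The windows of Atp5g2, lower in superficial than in basal cells, and Ndufa11, higher in wing than in basal cells, hold an NRF1 motif. Those of Ndufa4, Cox5a and Cox7a2l hold none of the motifs. The part of these motifs in the levels was not tested. Searched on both strands, the strict NRF1 palindrome was in 5 of the 71 windows of nuclear members (7.04%), against 0.971% of all 32851 windows. The looser form, which includes the strict one, was in 18 of 71 (25.4%), against 4.60% of all. The YY1 letters AAGATGGC were in 9 (12.7%), against 2.75% of all, and the GABPA letters CCGGAAGT in 5 (7.04%), against 3.89%. The letters TCAAGGTCA, bound by the receptor ERRA, were in 2 (2.82%), against 0.423%. TATAAA, on the gene's strand, was in 2 (2.82%), against 8.32%. A match is a run of letters in the window and not a measured site.

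The genes that maintain and read mitochondrial DNA were lower in superficial than in basal cells. All 12 genes for replication and transcription of mitochondrial DNA and 14 of 15 for processing of its RNA were lower under both scalings, where 45.2% of all genes were. Their medians were -1.16 and -1.29 with TMM, beside -0.11 for all genes. Top1mt, the mitochondrial topoisomerase, was at -3.24 ± 0.18, Polg2, an accessory subunit of the mitochondrial DNA polymerase, at -2.32 ± 0.20, and Ssbp1, which binds single-stranded mitochondrial DNA, at -0.97 ± 0.07 with TMM. Lrpprc, which stabilises mitochondrial mRNA, was at -2.99 ± 0.17 (edgeR adjusted p = 9.3e-11). In wing cells 11 of the 12 and 13 of the 15 were lower with TMM, where 38.7% of all genes were, and in conjunctival cells 11 and 9, where 40.0% were.

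Of 78 mitochondrial ribosomal protein genes 52 were lower and 3 higher under both scalings in superficial cells. For all genes the shares were 45.2% lower and 20.7% higher, which also holds for the lists that follow. Of the assembly factors, 11 of 15 for complex I, among them Ndufaf4 at -2.89 ± 0.13, and 8 of 10 for complexes II and III, among them Bcs1l at -2.71 ± 0.15, were lower under both. For complex IV 9 of 22 (40.9%) were lower and 3 higher under both, near the share of all genes. The median was 0.14 with TMM and -1.01 with totals, so its sign turned with the scaling. Sco2, which delivers copper to complex IV, was at -2.88 ± 0.16, and Coa3, a factor for mt-Co1 synthesis, at 1.06 ± 0.07 with TMM. Of 14 electron carrier genes 9 were lower under both scalings, and of 4 ATP synthase assembly and inhibitor genes 3. Of 14 TCA cycle genes 10 were lower, with Idh3a, a subunit of isocitrate dehydrogenase, at -2.71 ± 0.11 and Suclg2 at -1.86 ± 0.08.

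Genes for mitophagy and clearance went the other way, with 6 of 10 higher and 1 lower under both scalings and a median of 1.80 with TMM and 0.65 with totals. Map1lc3b, an autophagosome marker that also serves general autophagy, was at 3.12 ± 0.08 (edgeR adjusted p = 5.5e-15), and Bnip3, a mitophagy receptor, at -3.46 ± 0.43. Among 11 genes for pyruvate entry 2 were higher and 5 lower under both (18.2% and 45.5%), near the 20.7% and 45.2% of all genes. Pdha1, a subunit of pyruvate dehydrogenase, was at 2.04 ± 0.07, and its kinase Pdk3 at -2.88 ± 0.25. Inner membrane carriers counted 1 higher and 4 lower (40.0%) of 10 under both, and outer membrane and import genes 1 and 9 of 16. The mitochondrial chaperones Hspe1 and Hspa9 were at -2.89 ± 0.08 and -2.23 ± 0.09, and the outer membrane channel Vdac2 at 1.71 ± 0.08. Of 9 regulators 1 was higher and 4 lower (44.4%) under both, also near the share of all genes, with Ppargc1a, a coactivator of mitochondrial biogenesis, at -4.89 ± 0.80 and Pprc1, a related coactivator, at -3.24 ± 0.25.

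**Figure D5:**
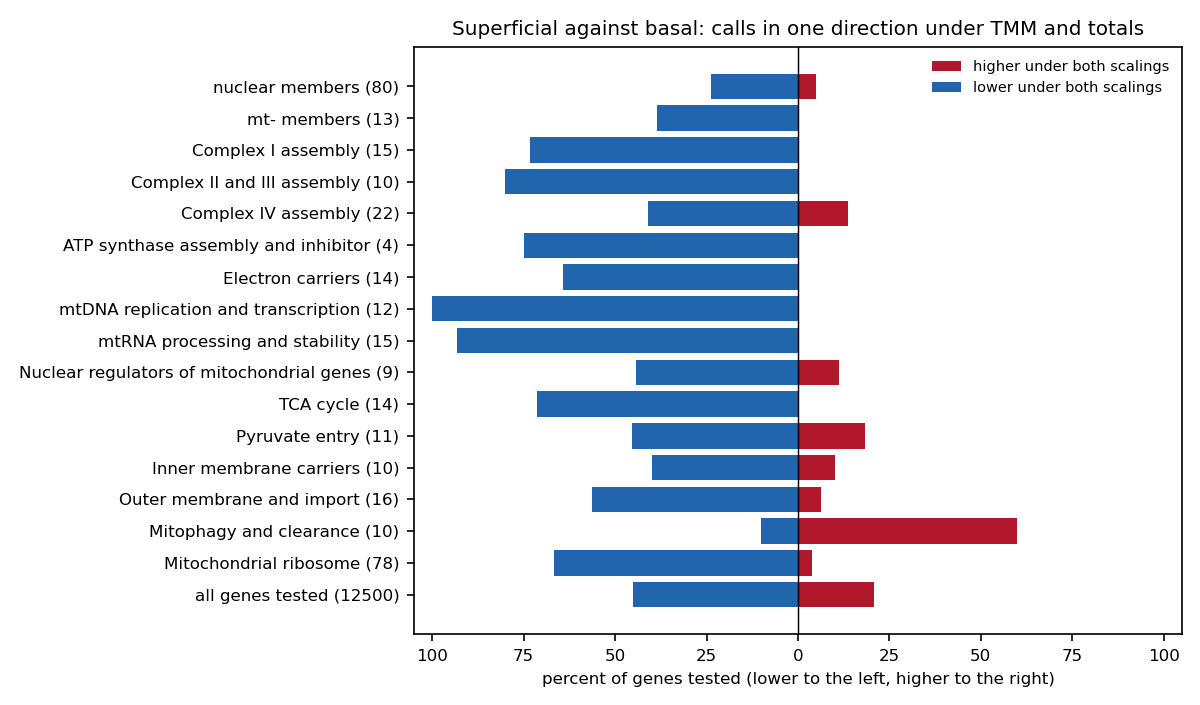
Percent of the genes of each list called higher (to the right) or lower (to the left) in superficial than in basal cells under both TMM and totals scaling, with the number of genes tested in parentheses. Genes for replication and transcription of mitochondrial DNA reach 100% lower, mitophagy genes 60.0% higher, and all genes 20.7% higher and 45.2% lower.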

How the data were processed

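The authors deposited a matrix of raw counts of UMIs, not normalised, and a table with the library and class of each cell. All values were whole numbers from 0. The kit was a 10x Chromium 3′ kit of version 3.1, per the labels' protocols. Per the submitters' processing notes Cell Ranger 5.0.0, Seurat 4 and the build mm10 were used, with no role stated. Cell filters, doublet treatment, annotation release and the way classes were labelled were not given in the sources used here. No doublet caller was run. Library 1 was matched to its label by elimination.

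Counts were summed per library and class. Each library holds both classes of a pair, from the same animals, so the library was a block by design. Each pair was tested with edgeR 4.0.16 (R 4.3.3, TMM, filterByExpr, robust quasi-likelihood F test), adjusted by Benjamini and Hochberg over all genes at a threshold of 0.05. With the library as a block, p-values measure how the class difference varies over 3 pools, with the spread moderated over all genes. Differences in level between the pools are taken out. Libraries pool mice, so the spread between single mice is not measured. The immune class, with 114 cells, was not compared. Alternatives were DESeq2 1.42.0, totals without TMM, scaling without mt- and ribosomal protein genes, no count filter, no block, each library left out, cells thinned to 2000 UMIs (609 shallower cells left out), equal cell numbers, and the deepest 10% of cells left out (3800 cells). The fit was run on simulated data first. Across comparisons and directions it recovered 4 to 24% of log2 changes of 0.5 and 53.1 to 96% of changes of 1. The simulated counts had a single dispersion for all genes and no library effect. These shares therefore do not carry over to the calls reported.

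The members and gene lists were chosen with earlier results of these data known. Text names follow a rule: all mt- members, the 8 largest changes per comparison with a mean log2 CPM of at least 5, the most abundant of each complex, the paralogs, and of each list the most abundant gene and the largest changes. Exceptions are marked, and not every member is reported here by name. Of the members 95 were found in GENCODE M21 (GRCm38), which gave coordinates. Tissue-restricted forms outside the table were not analysed here. Python 3.11.15, numpy 2.4.6, scipy 1.17.1, pandas 2.3.3 and matplotlib 3.10.9 were used.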

Additional observations from a re-analysis of the deposited data

How the results depend on the processing

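The sign of the log2 fold change differed between the scalings for 55 of 93 members in superficial against basal cells and 62 of 92 against wing cells, and in the other comparisons for 2 (TAC1) to 31 (conjunctival) of 93. With totals in place of TMM the median nuclear member moved to 0.071 in limbal cells, 0.076 in TAC2, -0.11 in wing cells, -0.87 in superficial cells and -0.051 in conjunctival cells against basal cells, and to -0.75 in superficial against wing cells. The mt- median moved to 0.088, -0.076, -0.43, -0.98, -0.47 and -0.64 in the same order. In TAC2 the mt- count became 7. Single members that changed sign with totals against basal cells were Cox7a2 at -0.0059 in wing cells, and in conjunctival cells Atp5g3 at -0.017, Cox7a2 at -0.020, Atp5g1 at -0.16, Cox6c at -0.11, mt-Co2 at -0.076 and mt-Nd4 at -0.10. In superficial against basal cells they were Atp5g3 at -0.77, Sdhb at -0.87, Cox6a1 at -0.077, Cox7a2 at -0.11, Uqcrb at -0.16, Cox6c at -0.86, Ndufb9 at -0.27, Cox7b at -0.81, mt-Nd2 at -0.79, mt-Co2 at -0.90, mt-Co3 at -0.57, mt-Nd4l at -0.98, mt-Nd4 at -0.25 and mt-Nd5 at -0.55. In superficial against wing cells they were Atp5g3 at -0.80, Ndufc1 at -0.20, Uqcrh at -0.71, Cox6a1 at -0.30, Cox6b1 at -0.079, Cox7a2 at -0.10, Ndufb1-ps at -0.12, Uqcrb at -0.48, Ndufs4 at -0.032, Cox6c at -0.65, Ndufb9 at -0.37, Cox7b at -0.65, mt-Nd2 at -0.36, mt-Co1 at -0.052, mt-Co2 at -0.64, mt-Atp6 at -0.73, mt-Co3 at -0.27, mt-Nd4l at -0.53, mt-Nd4 at -0.18 and mt-Nd5 at -0.37.

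DESeq2 called 11 nuclear and 4 mt- members in limbal cells, 15 nuclear members in TAC1 and 24 in TAC2, and 3193, 2251 and 3389 of all genes there. It gave nuclear and mt- medians of 0.35 and 0.24 in superficial against basal cells and an mt- median of 0.40 against wing cells. Without the count filter these medians were 0.24 and 0.13, and 0.14 and 0.27 against wing cells, and the nuclear median of TAC2 was -0.011. Scaling without mt- and ribosomal protein genes called 3 mt- members in TAC1. Without the replicate block, nuclear and mt- calls were 9 and 1 in limbal cells, 0 and 0 in TAC1, 6 and 0 in TAC2, and 36 and 4 in wing cells, and 4 mt- members passed in conjunctival cells. Calls over all genes were then 1298 in TAC1 and 2630 in TAC2. The cause was not tested.

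With cells thinned to 2000 UMIs, 9 nuclear and 3 mt- members passed in limbal cells, 6 mt- members in TAC1 and 3 in TAC2. The mt- median against basal cells was 0.12 in limbal cells, 0.09 in TAC1, -0.078 in TAC2, -0.18 in wing cells, -0.053 in superficial cells and -0.29 in conjunctival cells. It was 0.13 in superficial against wing cells. The nuclear median was 0.14 in superficial and 0.15 in conjunctival cells. Thinning reversed mt-Nd4l in limbal cells to 0.01 and in superficial cells to -0.053. Thinned calls over all genes were 1867 in limbal, 2038 in TAC1, 2955 in TAC2 and 6171 in conjunctival cells. With equal cell numbers 19 nuclear and 5 mt- members and 3161 genes passed in limbal cells, with an mt- median of 0.040. Without the deepest 10% of cells the mt- median was 0.065 in limbal, -0.11 in TAC2 and -0.18 in wing cells, mt-Atp8 was at 0.0021 in limbal cells, and 3 mt- members passed in TAC1.

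Leaving out 1 library at a time gave 9 to 28 nuclear and 3 to 8 mt- calls in limbal cells, 18 to 37 and 1 to 3 in TAC1, and 23 to 40 and 5 to 10 in TAC2. The mt- median ran from -0.042 to 0.018 in limbal cells and from -0.26 to -0.18 in wing cells, and the nuclear median of TAC2 from -0.034 to 0.030. Of the classes compared, the limbal class, with 737 cells, had the fewest UMIs behind its values. The superficial, conjunctival and wing counts of nuclear members stayed within 1.5 times under every alternative, apart from the wing count without the block, whereas their split into higher and lower turned with the scaling as given above.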
